A study of Mus musculus with 11 samples.

Results

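The transcripts of 36 lysosomal genes were followed in whole mouse hearts: 9 cathepsins and other peptidases, 9 enzymes that degrade sugar chains, 4 lipid hydrolases, 4 saposin, progranulin and sterol carrier genes, 7 membrane proteins, and 2 proton pump subunits with the transcription factor Tfeb. The genes were chosen by symbol, all 36 were found among the 35584 genes of the deposited count table, and all 36 were among the 13884 genes that passed the filter on low values, a mean of at least 10 normalised counts. PolyA RNA was sequenced from male mice of 8 to 12 weeks, in 11 heart libraries. The Macrophage-depleted group (n = 3) was CD169-DTR, with the diphtheria toxin receptor driven by the locus of the macrophage marker CD169; toxin was given at 0.01 µg per g of body weight, 3 times a week for 3 weeks, and the hearts had been depleted of macrophages for 21 days. The Mertk-KO group (n = 2) lacked the phagocytic receptor Mertk, and the LxRαβ DKO group (n = 3) lacked both liver X receptors. The WT group (n = 3) was given toxin on the same schedule; for the Mertk-KO and LxRαβ DKO groups the labels do not say whether toxin was given. The labels do not say that the libraries of a group came from separate mice, so every p-value reflects library-to-library spread, which may be technical.

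The lysosome is the acidic compartment in which cells break down material taken up by phagocytosis and endocytosis or delivered by autophagy. A proton pump in its membrane keeps the lumen acidic, soluble hydrolases digest proteins, sugar chains and lipids there, and heavily glycosylated membrane proteins line and protect the membrane. Resident heart macrophages are rich in lysosomes and clear debris from cardiomyocytes, while cardiomyocytes carry lysosomes of their own, whose failure causes heart disease in Danon, Pompe and Fabry disease. Transcription factors of the MiT/TFE family, Tfeb among them, bind a short palindrome, CACGTG in its core, in the promoters of many lysosomal genes.

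Promoter windows from RefSeq (GRCm38.p6, 250 bases before to 50 after the start of transcription) existed for 32 of the 36 genes; Npc1, Ctsb, Asah1 and Ctsh had no entry. The motif CACGTG, which reads the same on both strands, lay in the windows of 14 of these 32 genes (43.8%), against 8.09% of all 27025 genes with a window. The longer palindrome TCACGTGA, which contains the shorter one, lay in 7 of 32 (21.9%), against 1.12% of all genes: Atp6v0d1, Atp6v1a, Cln3, Ctsa, Ctsd, Gla and Mcoln1. A match describes the letters in the window and is not evidence of binding. The stretches below belong to the 3 genes that differed between Mertk-KO and WT hearts (Ctsd, Lamp1, Npc2) and to 2 further genes with repeated copies (Cln3, Gla); they run 5′ to 3′ on the strand of the gene, with each CACGTG in capitals.
Ctsd, chr7:142387878-142387977, minus strand, 150 to 51 bases before the start: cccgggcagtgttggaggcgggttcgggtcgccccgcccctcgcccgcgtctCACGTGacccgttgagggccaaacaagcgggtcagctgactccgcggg
Lamp1, chr8:13159061-13159160, plus strand, 100 to 1 bases before the start: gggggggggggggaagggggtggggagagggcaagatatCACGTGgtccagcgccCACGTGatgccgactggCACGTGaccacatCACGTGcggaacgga
Npc2, chr12:84773113-84773262, minus strand, 150 to 1 bases before the start: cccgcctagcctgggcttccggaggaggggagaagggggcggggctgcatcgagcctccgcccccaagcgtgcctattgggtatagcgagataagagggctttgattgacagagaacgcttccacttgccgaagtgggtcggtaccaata
Cln3, chr7:126583307-126583406, minus strand, 170 to 71 bases before the start: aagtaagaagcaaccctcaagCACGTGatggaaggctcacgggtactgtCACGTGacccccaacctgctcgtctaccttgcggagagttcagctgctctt
Gla, chrX:134601176-134601255, minus strand, 250 to 171 bases before the start: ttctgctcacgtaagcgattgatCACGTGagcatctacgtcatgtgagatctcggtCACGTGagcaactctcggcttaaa
The start is that of a RefSeq transcript, while the gene positions given with the results span all GENCODE transcripts, whose outermost start lay 211 bases further upstream for Ctsd, 120 for Gla and 40 for Npc2, and at the same base for Lamp1. Cln3 has 2 RefSeq starts, and the one used here is 2581 bases downstream of the outermost. The printed stretches of Ctsd and Cln3, and the end of that of Npc2, thus lie within the GENCODE span of the gene. Lamp1 held 4 copies within 100 bases of its start, more than any of the other stretches printed here, and the window of Npc2 held none.

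Libraries held 10938600 to 20722295 estimated reads. Levels are given as normalised counts (estimated reads scaled to a common library size) or, between genes, as the deposited normalised TPM, which is per transcript length. Cardiomyocyte markers summed to between 763125.4 and 945434.2 normalised counts in every library. Of the targeted genes, Siglec1 (which encodes CD169) had 33.8, 2.12 and 0.719 normalised counts in Macrophage-depleted hearts, against 64.3, 55.3 and 53.4 in WT hearts, so Macrophage-depleted library 1 stood apart from the other libraries of its group. In libraries 2 and 3 the value was no more than that of 3 reads. The log2 difference of -3.36 was not called (limma adjusted p = 0.178). Mertk had 75.7 and 89.4 normalised counts in Mertk-KO hearts, against 130.8, 147.0 and 129.9 in WT hearts. It was also below all WT libraries in Macrophage-depleted (125.3, 93.3 and 75.4) and LxRαβ DKO hearts (93.6, 102.6 and 100.5). Mertk-KO hearts did not differ in it from either of these groups (limma adjusted p = 0.438 and 0.47). The count covers the whole gene and does not separate a deleted part. Both liver X receptor genes were lower in LxRαβ DKO than in WT hearts, with log2 differences of -2.50 (Nr1h3) and -2.52 (Nr1h2), and adjusted p-values of 6.01e-07 and 3.25e-08 in limma.

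The lysosomal genes spanned a wide range of levels in the WT heart. Psap, the precursor of the saposins that present sphingolipids to hydrolases, was highest at 597.7 ± 6.47 TPM (SD, n = 3), followed by the aspartic protease Ctsd at 481.2 ± 1.37 TPM, the membrane proteins Laptm4a at 223.5 ± 3.62 TPM and Lamp1 at 184.6 ± 3.18 TPM, and the tetraspanin Cd63 at 115.8 ± 6.38 TPM. These 5 were the genes above 100 TPM. The cysteine protease Ctsb (98.5 ± 1.08 TPM) and the acid sphingomyelinase Smpd1 (79.4 ± 2.32 TPM) came next. At the low end 8 genes were below 10 TPM, from Neu1 at 8.05 ± 0.66 TPM to the heparan sulfatase Sgsh at 3.07 ± 0.572 TPM and the galactosidase Gla at 1.31 ± 0.325 TPM. The first 6 places of this order were separated without overlap of the WT libraries, while 18 of the 35 neighbouring pairs overlapped, among them Neu1, Glb1, Atp6v1a and Cln3.

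Added together, the lysosomal transcripts came to 2521.6 ± 109.1 TPM in Macrophage-depleted hearts (n = 3), 2860.8 ± 156.1 TPM in Mertk-KO hearts (n = 2), 2440.6 ± 48.5 TPM in LxRαβ DKO hearts (n = 3) and 2480.8 ± 30.9 TPM in WT hearts (n = 3, SD throughout). Both Mertk-KO libraries, at 2971.2 and 2750.4 TPM, lay above every other library, the highest of which was Macrophage-depleted library 1 at 2601.2 TPM. The deposited TPM of all genes did not share a total. It was lowest at 916500 in Macrophage-depleted library 2 and highest at 1157287 in Mertk-KO library 2, with 1004286 in Mertk-KO library 1. The order of these sums therefore depends on the authors' scaling. Totals were 972291, 986911 and 982027 in WT libraries 1 to 3. Taken relative to its own total, the sum of Mertk-KO library 2 lay below that of every WT library. That of Mertk-KO library 1 stayed above every other library. In summed normalised counts, which also rest on a scaling by library, both Mertk-KO libraries were highest, at 84595 and 77753. Psap and Ctsd alone made up 43.5% of the sum in Macrophage-depleted hearts, 46.0% in Mertk-KO hearts, 42.9% in LxRαβ DKO hearts and 43.5% in WT hearts. Across the 11 libraries the normalised count of a lysosomal gene had a median coefficient of variation of 10.6%, and within the WT libraries of 5.99%. The steadiest genes over the 11 libraries were Ppt1 (5.58%), Glb1 (5.65%) and Laptm4a (5.77%), and the most variable were Npc1 (20.9%), Gla and Ctsk (17.5%).

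**Figure D1:**
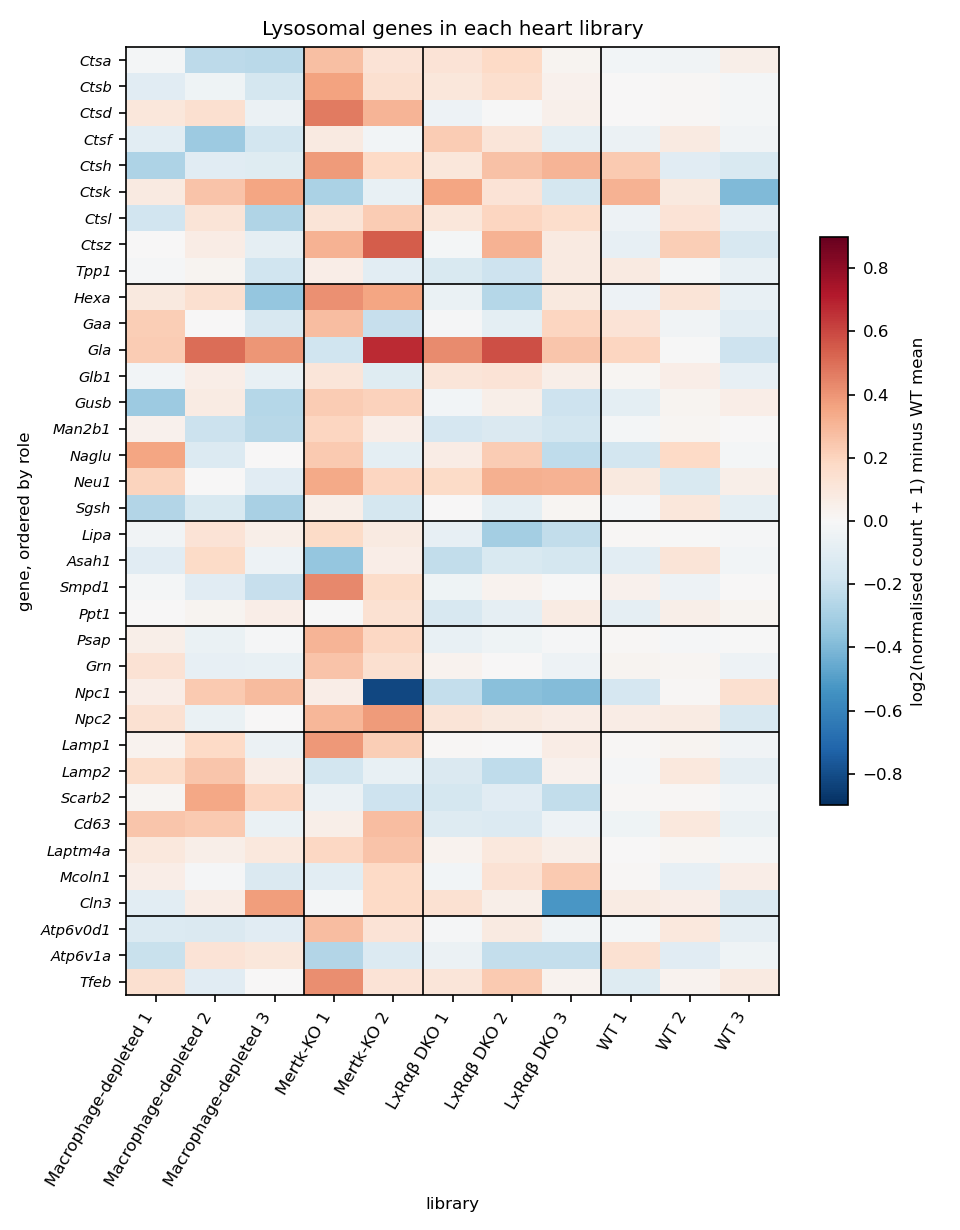
Each cell is the log2(normalised count + 1) of 1 lysosomal gene in 1 heart library minus the mean of the 3 WT libraries, with genes in rows by role and libraries in columns by group. The 2 Mertk-KO columns are mostly above WT, with library medians of 0.19 and 0.14, and the darkest cell is Npc1 in Mertk-KO library 2.

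Mertk-KO hearts, which lacked the phagocytic receptor, were compared with WT hearts, which had received toxin. The labels do not say whether Mertk-KO mice had, so receptor loss and toxin cannot be told apart. Of the 36 genes, 27 were higher and 9 lower in Mertk-KO hearts, with a median log2 difference of 0.17, where the median of all genes tested was -0.015. Calls were made at a Benjamini-Hochberg adjusted p below 0.05 in limma over all genes tested. Called genes were 3 of the 36 (8.33%), all higher: Ctsd, Npc2 and Lamp1, against 9.27% of all genes called in either direction and 3.38% called higher. An unadjusted p under 0.05 was found for 12 of the 36, against 28.6% of all genes. In 17 of the 36 genes both Mertk-KO libraries lay above all WT libraries, where a smaller share of all genes, 21.4%, did so. In 2 of the 36 (Scarb2, Atp6v1a) both lay below, where a larger share, 21.1%, did so. The share of called genes was thus near that of all genes in either direction. The count of 3 was 2 without Macrophage-depleted library 2 and 0 without any 1 of the WT libraries. It was 1, Ctsd, without any 1 of the other Macrophage-depleted or of the LxRαβ DKO libraries. Without Mertk-KO library 1 the log2 differences of Ctsd, Npc2 and Lamp1 were 0.31, 0.38 and 0.22. Without Mertk-KO library 2 they were 0.47, 0.30 and 0.39. The share of all genes called moved as well. It was 4.56% to 8.81% without a Macrophage-depleted or LxRαβ DKO library. It was 1.18% without WT library 1, 1.2% without WT library 2 and 0.504% without WT library 3.

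Ctsd lies at chr7:142375911-142388038 (GRCm38, minus strand) and encodes cathepsin D, the main aspartic protease of the lysosome. It had 16293.2 and 14551.3 normalised counts in Mertk-KO hearts, against 11809.0, 11828.2 and 11632.4 in WT hearts. Both Mertk-KO libraries were above every library of the other groups, and the WT libraries lay close together. The level was 1.31-fold that of WT, a log2 difference of 0.39 ± 0.085 (SE; 95% interval 0.20 to 0.57; limma adjusted p = 0.0239). Ctsd stayed called in 14 of 24 alternative settings, with adjusted p-values between 0.00462 and 0.284 over all of them. Leaving out 1 library ended the call for Mertk-KO library 1 (adjusted p = 0.0567), WT library 1 (0.0708), WT library 2 (0.0734) and WT library 3 (0.0807).

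Npc2 (chr12:84754562-84773152, minus strand) encodes the soluble protein that passes cholesterol to Npc1 for export from the lysosome. It had 738.1 and 781.2 normalised counts in Mertk-KO hearts, against 629.5, 632.7 and 542.8 in WT hearts. Both Mertk-KO libraries were above all WT libraries, of which library 3 was the lowest. The log2 difference was 0.34 ± 0.096 (SE; limma adjusted p = 0.0487). The call sat at the threshold: it was lost on leaving out any of the 11 libraries in turn, with adjusted p-values of 0.05 to 0.145, and stayed in 5 of 24 alternatives (0.0419 to 0.252).

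Lamp1 (chr8:13159161-13175338, plus strand), which with Lamp2 forms much of the glycoprotein coat inside the lysosomal membrane, had 6298.6 and 5619.1 normalised counts in Mertk-KO hearts, against 4839.0, 4890.4 and 4713.9 in WT hearts. Again both Mertk-KO libraries lay above all others. The log2 difference was 0.31 ± 0.085 (SE; limma adjusted p = 0.0457). It stayed called on leaving out Macrophage-depleted library 2 or Mertk-KO library 2, was lost on leaving out any of the other 9 libraries, and stayed in 7 of 24 alternatives (adjusted p 0.0142 to 0.335). Its partner Lamp2 went the other way in value as normalised, with 2176.0 and 2328.0 normalised counts in Mertk-KO hearts against 2417.2, 2602.5 and 2300.3 in WT hearts. These overlapped (log2 difference -0.12, limma adjusted p = 0.46), and the sign depended on the correction for transcript length and GC given below.

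**Figure D2:**
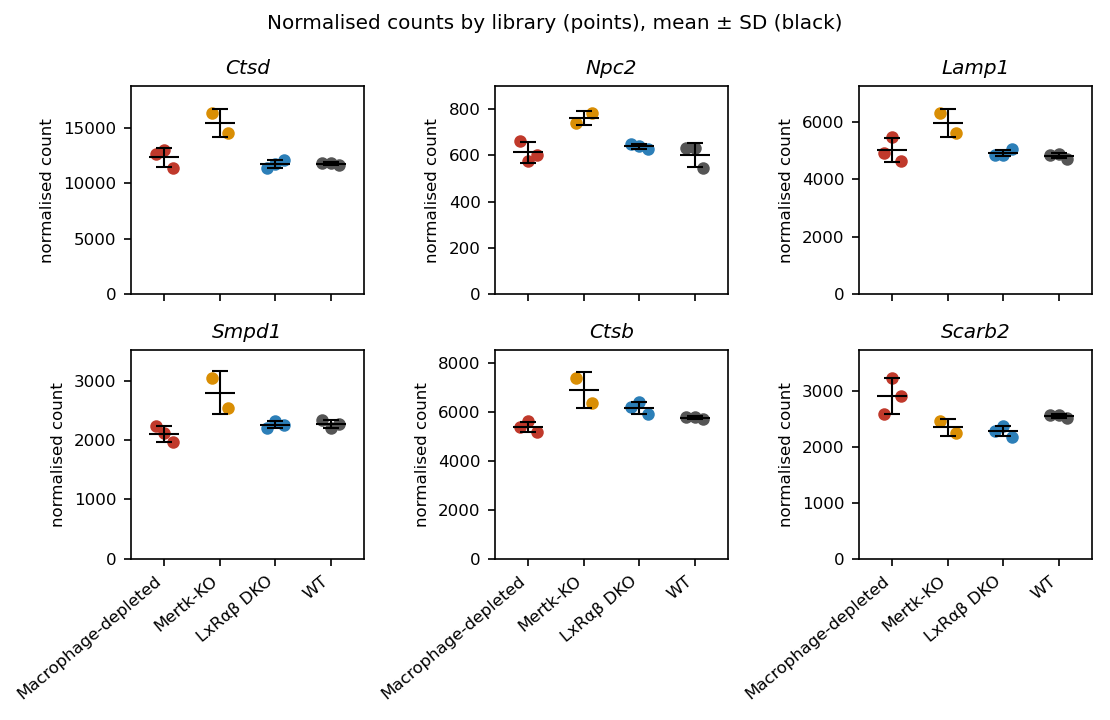
Normalised counts of 6 lysosomal genes in each library (points), with the group mean and SD in black, on axes that start at 0. For Ctsd, Npc2 and Lamp1 the 2 Mertk-KO points lie above the points of every other group, and for Scarb2 the Macrophage-depleted points lie above the WT points.

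The 4 genes next by p-value in Mertk-KO against WT hearts were not called. Smpd1, which cleaves sphingomyelin to ceramide, had 3055.0 and 2543.0 normalised counts in Mertk-KO hearts, against 2332.9, 2202.0 and 2273.9 in WT hearts (log2 difference 0.30, limma adjusted p = 0.0586). The membrane protein Laptm4a had 5183.4 and 5451.3 in Mertk-KO against 4571.5, 4616.1 and 4508.0 in WT hearts (0.22, adjusted p = 0.0592). Psap had 23260.3 and 21320.4 in Mertk-KO against 18946.6, 18621.0 and 18747.6 in WT hearts (0.25, adjusted p = 0.0665), and the cysteine carboxypeptidase Ctsz had 355.8 and 419.2 in Mertk-KO against 272.3, 333.7 and 258.8 in WT hearts (0.43, adjusted p = 0.0687). In all 4 the Mertk-KO libraries lay above the WT libraries.

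By role, 7 of 9 peptidases were higher in Mertk-KO hearts (1 called, Ctsd; median 0.20), as were 7 of 9 sugar-degrading enzymes (0 called; median 0.13), 3 of 4 lipid hydrolases (0 called; median 0.098) and 3 of 4 of the saposin, progranulin and sterol carrier genes (1 called, Npc2; median 0.22). The membrane proteins were higher in 5 of 7 (1 called, Lamp1; median 0.08). Among the uncalled peptidases Ctsb had a log2 difference of 0.25, the aminopeptidase Ctsh 0.28 and the carboxypeptidase Ctsa, which also stabilises Neu1 and Glb1, 0.20. Among the enzymes of sugar chains the values ran from -0.054 for Sgsh to 0.38 for Hexa, the subunit of hexosaminidase A that degrades ganglioside GM2, and stood at 0.035 for Gaa, the glycogen-degrading enzyme lacking in Pompe disease. Of the pump subunits, the membrane-sector subunit Atp6v0d1 was at 0.20 and the catalytic subunit Atp6v1a at -0.19, and Tfeb was at 0.27.

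Npc1, the membrane transporter that exports cholesterol, gave the lowest log2 difference of the 36, and it rested on 1 library. It had 925.4 and 502.5 normalised counts in Mertk-KO hearts, against 798.4, 896.4 and 979.4 in WT hearts. The first Mertk-KO library lay inside the WT range and the second well below it. The log2 difference of -0.38 ± 0.20 (SE) was not called (limma adjusted p = 0.222). It was 0.059 without Mertk-KO library 2 (adjusted p = 0.797) and -0.82 without Mertk-KO library 1 (adjusted p = 0.00339).

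Transcript length moved with these differences. In the Mertk-KO libraries the difference of all genes from WT correlated with transcript length, with Spearman's rho of -0.24 and -0.51 over 13871 genes, so that long transcripts were lower. The LxRαβ DKO libraries gave -0.25, -0.38 and -0.15, the Macrophage-depleted libraries -0.046, 0.23 and 0.053, and the WT libraries -0.022 to 0.022. The lysosomal genes had a median transcript length of 2608 bases, against 3001 bases for all genes tested, and across the 36 the rho between the Mertk-KO difference and length was -0.39. These are descriptions across genes, which share their libraries.

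With the trend on length and GC content removed in each library, the median log2 difference of the lysosomal genes in Mertk-KO against WT hearts was 0.069, with 22 of 36 higher. The differences of Ctsd (0.18, limma adjusted p = 0.284), Npc2 (0.25, 0.204) and Lamp1 (0.15, 0.335) were then no longer called. Ctsb, with 7390.7 and 6361.0 normalised counts in Mertk-KO hearts against 5765.2, 5798.5 and 5684.9 in WT hearts, was called in their place (log2 difference 0.32, adjusted p = 0.0436). Ctsl, whose annotated transcript is the longest of the 36 at 6168 bases, was called as well (0.47, adjusted p = 0.038). The 2 deposited tables imply a shorter Ctsl transcript: it had 23.5 normalised counts per TPM, near the 24.6 of Ctsd, whose transcript has 2127 bases. With that ratio used as the length, Ctsb was the gene called (0.39, adjusted p = 0.0312), Ctsl was not (0.23, adjusted p = 0.205), and the median of the 36 genes was 0.091. Lamp2 was then higher in Mertk-KO than in WT hearts (0.30, limma adjusted p = 0.177), opposite in sign to its value as normalised. Lamp1 stood at 0.20 (limma adjusted p = 0.171).

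**Figure D3:**
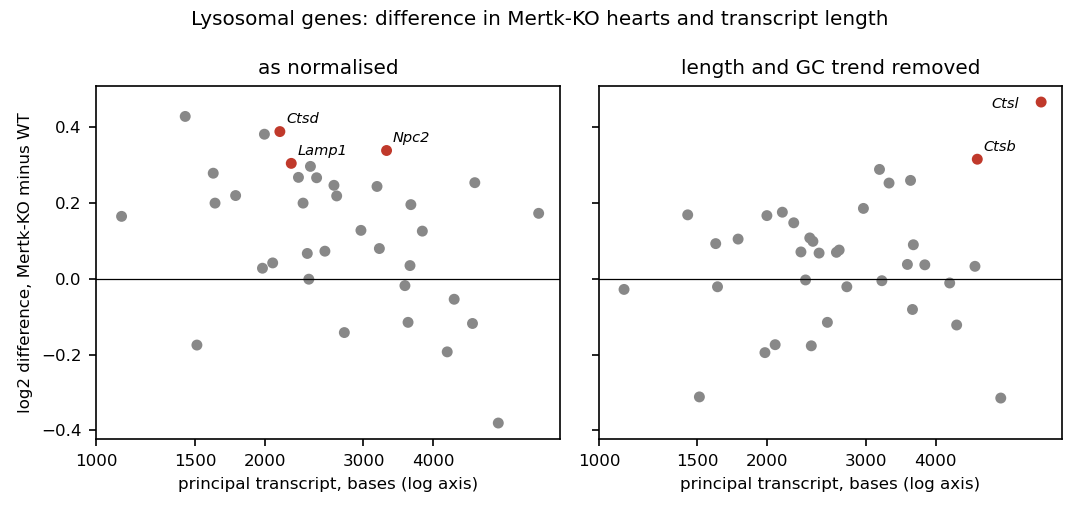
The log2 difference between Mertk-KO and WT hearts of each lysosomal gene (vertical axis) against its transcript length in bases on a log axis, as normalised (left) and with the length and GC trend removed (right); red points passed an adjusted p of 0.05. Ctsd, Npc2 and Lamp1 are red on the left, and Ctsb and Ctsl on the right.

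Macrophage transcripts also differed in level between the Mertk-KO libraries. Of 18 macrophage markers 15 were higher in Mertk-KO than in WT hearts, 0 of them called, with a median log2 difference of 0.42. Their library medians were 0.078 and 0.68 in Mertk-KO hearts, while those of the lysosomal genes were 0.19 and 0.14. The markers summed to 5866.2 and 8588.4 normalised counts in Mertk-KO hearts and to between 4824.7 and 5699.8 in WT hearts, with no marker at 0 in any library. Cardiomyocyte markers were lower in 7 of 11 (median -0.125), while 1 of them, Myl3, was called higher (log2 difference 0.49, limma adjusted p = 0.0213). Endothelial markers were higher in 7 of 10 (0 called, median 0.095). Mesothelial markers were lower in 3 of 4 (0 called, median -0.54, and -2.19 to 0.12 without 1 library). The part of cell content in the lysosomal differences was not tested, and in whole tissue more cells of a type cannot be told apart from more RNA per cell.

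Macrophage-depleted hearts were compared with WT hearts that had received the same toxin. None of the 36 lysosomal genes was called in limma, where 0.238% of all genes were, and the smallest adjusted p was 0.658. Voom weights gave 0 calls as well. At an unadjusted p under 0.05 there was 1 gene, Scarb2, against 7.53% of all genes. Higher and lower values were balanced, 19 against 17, and the median log2 difference was 0.009, where that of all genes was 0.003. All 36 of the 95% intervals lay within a log2 difference of 1 on either side, and 32 of them within 0.5.

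These small differences stood beside a broad loss of macrophage transcripts. All 18 macrophage markers were lower in Macrophage-depleted than in WT hearts, with a median log2 difference of -1.07, and 2 of them, Timd4 and Cd163, were called. They summed to 3621.4, 3005.6 and 1695.4 normalised counts in the 3 Macrophage-depleted libraries, with library medians of -0.56, -0.87 and -1.95. The library medians of the lysosomal genes were 0.028, 0.04 and -0.064. Leaving out library 1, in which Siglec1 was highest of the group, the median of the lysosomal genes was -0.043 and again 0 of 36 were called. Of the other marker lists, adipocyte markers were lower in 5 of 5 (median -1.83), recruited monocyte and neutrophil markers higher in 5 of 6 (median 0.68), erythroid markers lower in 5 of 5 (median -0.66) and endothelial markers lower in 8 of 10 (median -0.15), with 0 called in each. Mesothelial markers summed to 264.7, 224.8 and 213.0 normalised counts in Macrophage-depleted hearts, against 184.0, 205.8 and 48.2 in WT hearts; their median log2 difference of 1.79 (higher in 4 of 4, 0 called) rested on WT library 3 and was 0.26 without it. The part of these cell types in the lysosomal values was not tested.

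**Figure D4:**
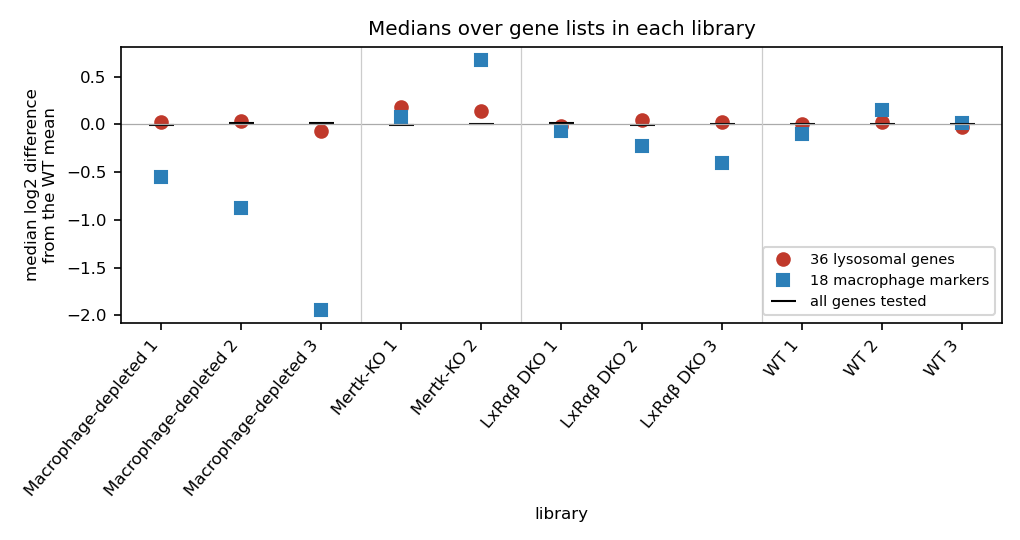
Median log2 difference from the WT mean in each library for the 36 lysosomal genes (red), 18 macrophage markers (blue) and all genes tested (black bars). In the Macrophage-depleted libraries the macrophage medians lie between -0.56 and -1.95 and the lysosomal medians between -0.064 and 0.04.

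The lysosomal gene with the smallest p in Macrophage-depleted against WT hearts was Scarb2 (chr5:92441314-92506833, minus strand), which encodes LIMP-2, the membrane protein that carries glucocerebrosidase to the lysosome. It had 2590.2, 3244.3 and 2917.0 normalised counts in Macrophage-depleted hearts, against 2568.1, 2575.8 and 2514.1 in WT hearts. All Macrophage-depleted libraries were above the WT libraries, the first of them only just. The log2 difference was 0.19 ± 0.084 (SE; limma adjusted p = 0.658). Gla (33.8, 41.1 and 38.1 normalised counts in Macrophage-depleted against 33.0, 28.7 and 25.1 in WT hearts) and Laptm4a (4883.4, 4740.3 and 4866.0 in Macrophage-depleted against 4571.5, 4616.1 and 4508.0 in WT hearts) were likewise above all WT libraries, which was so of 8.51% of all genes.

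In the other direction, Ctsb, Ctsf, Sgsh and Atp6v0d1 lay below all WT libraries in all Macrophage-depleted libraries, as 8.15% of all genes did. Ctsf, a cysteine protease, had 510.1, 435.6 and 486.4 normalised counts in Macrophage-depleted against 527.4, 578.4 and 533.3 in WT hearts (log2 difference -0.20, limma adjusted p = 0.725). Sgsh, which removes sulfate from heparan sulfate, had 108.0, 118.1 and 105.9 in Macrophage-depleted against 129.1, 139.3 and 122.2 in WT hearts, the lowest difference of the 36 (-0.23, adjusted p = 0.713). Ctsa, with 1573.1, 1353.2 and 1346.3 in Macrophage-depleted against 1568.8, 1562.2 and 1658.0 in WT hearts, overlapped WT through library 1 (-0.17, adjusted p = 0.699). By role, peptidases were lower in 7 of 9 (median -0.098) and membrane proteins higher in 6 of 7 (median 0.12), with none called.

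**Figure D5:**
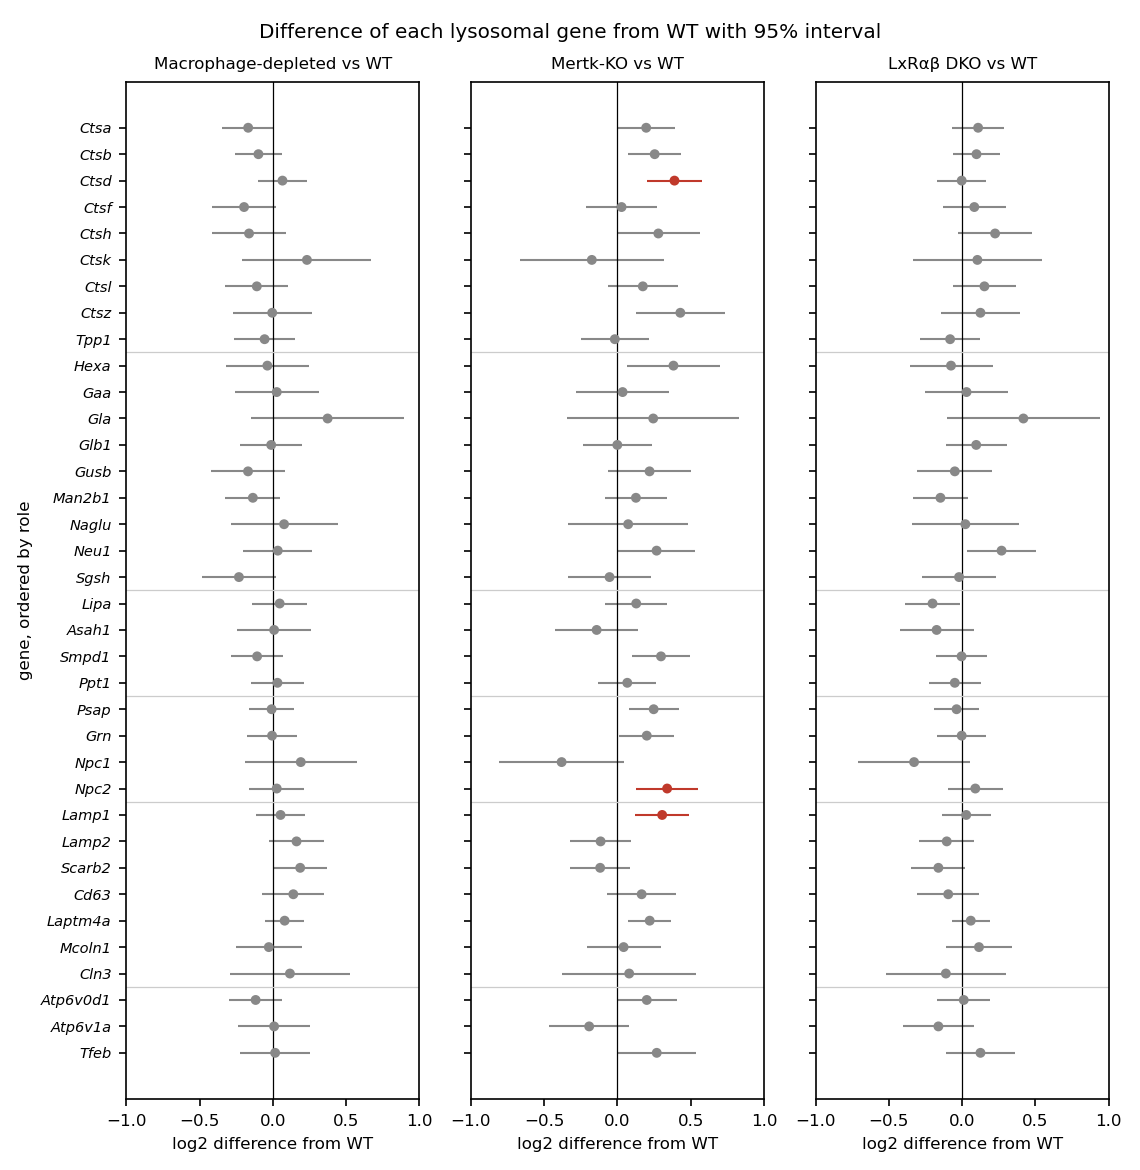
Log2 difference from WT of each lysosomal gene in Macrophage-depleted, Mertk-KO and LxRαβ DKO hearts, with 95% intervals from limma, genes ordered by role and called genes in red. Ctsd, Npc2 and Lamp1 in Mertk-KO hearts are the called genes, and the widest intervals belong to Gla.

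LxRαβ DKO hearts, which lacked both sterol-sensing liver X receptors, were compared with WT hearts that had received toxin. Here too the labels do not give toxin for the knockout, so receptor loss and toxin cannot be told apart. None of the 36 genes was called in limma, where 0.418% of all genes were, and 0 were called with voom weights. At an unadjusted p under 0.05 there were 2, Neu1 and Lipa, against 11.5% of all genes, and the smallest adjusted p was 0.386. The values were split evenly, 18 higher and 18 lower, and the median log2 difference was 0.004 (all genes 0.001). All 95% intervals lay within 1 on the log2 scale, and 31 within 0.5.

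Neu1, the sialidase that removes sialic acid from glycoproteins, had 280.7, 311.3 and 309.7 normalised counts in LxRαβ DKO hearts, against 264.8, 226.2 and 257.8 in WT hearts. Lipa, the acid lipase that frees cholesterol from its esters in the lysosome, had 382.6, 327.0 and 345.4 in LxRαβ DKO against 407.2, 402.4 and 401.3 in WT hearts. Neither pair of groups overlapped, with log2 differences of 0.27 (limma adjusted p = 0.386) for Neu1 and -0.20 (0.408) for Lipa. The next smallest p was that of Ctsh, with 396.4, 443.4 and 457.6 normalised counts in LxRαβ DKO against 435.3, 344.4 and 335.6 in WT hearts, which overlapped through WT library 1 (0.23, adjusted p = 0.484).

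All 4 lipid hydrolases had lower values (median -0.11), the ceramidase Asah1 at -0.17, the depalmitoylating enzyme Ppt1 at -0.05 and Smpd1 at -0.004. The sterol transporters had opposite signs: Npc1 had 765.6, 683.8 and 676.1 normalised counts in LxRαβ DKO hearts, against 798.4, 896.4 and 979.4 in WT hearts, and Npc2 had 650.3, 638.7 and 627.7 in LxRαβ DKO against 629.5, 632.7 and 542.8 in WT hearts. Npc1 was below all WT libraries, the lowest log2 difference of the 36 at -0.33 (limma adjusted p = 0.495), and Npc2 overlapped WT (0.09, adjusted p = 0.72). Scarb2, at 2287.3, 2372.5 and 2188.9 normalised counts, was also below all WT libraries (-0.16, adjusted p = 0.49). In all, 4 genes lay above all WT libraries (Ctsb, Gla, Neu1, Laptm4a), where 12.0% of all genes did, and 5 lay below (Man2b1, Lipa, Asah1, Npc1, Scarb2), where 10.7% did. The largest log2 difference of the 36 was that of Gla, 0.42 with a 95% interval of -0.11 to 0.94, from 39.0, 43.4 and 34.4 normalised counts in LxRαβ DKO against 33.0, 28.7 and 25.1 in WT hearts.

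The groups other than WT were also set against each other; these comparisons share libraries with those above, as those with WT share the WT libraries, and are not independent of them. Macrophage-depleted and Mertk-KO hearts differed in 10 of the 36 genes (27.8%), where 21.0% of all genes were called. In Macrophage-depleted hearts 9 were lower (25.0%; 9.39% of all genes): Ctsa, Ctsb, Ctsd, Ctsh, Ctsz, Smpd1, Psap, Npc2 and Atp6v0d1. Scarb2 was higher (2.78% of the 36; 11.6% of all genes). The median log2 difference of the 36 was -0.19, with 27 lower. In 17 of the 36 genes all Macrophage-depleted libraries lay below both Mertk-KO libraries, where a smaller share of all genes, 22.6%, did so.

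Smpd1 (chr7:105554360-105558389, plus strand) had 2241.1, 2119.0 and 1970.2 normalised counts in Macrophage-depleted hearts, against 3055.0 and 2543.0 in Mertk-KO hearts, without overlap (log2 difference -0.40 ± 0.09, SE; limma adjusted p = 0.0123). Ctsb (chr14:63122462-63145923, plus strand) had 5363.3, 5600.8 and 5158.4 in Macrophage-depleted against 7390.7 and 6361.0 in Mertk-KO hearts, also without overlap (-0.35 ± 0.082, SE; adjusted p = 0.0141). Ctsb stayed called in 21 of 24 alternatives (adjusted p 0.00207 to 0.119) and Smpd1 in 20 (0.00117 to 0.153). Among the libraries left out in turn, Mertk-KO library 1 ended both calls, at adjusted p-values of 0.0593 for Ctsb and 0.052 for Smpd1. The other 8 stayed called in 9 to 16 of 24 alternatives.

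Of the 10 genes, 5 were cathepsins. Ctsh had 304.7, 344.5 and 342.1 normalised counts in Macrophage-depleted hearts, against 480.6 and 417.7 in Mertk-KO hearts (log2 difference -0.44, limma adjusted p = 0.0334), and Ctsz had 286.6, 300.5 and 270.5 in Macrophage-depleted against 355.8 and 419.2 in Mertk-KO hearts (-0.43, adjusted p = 0.0441). Ctsa (-0.36, adjusted p = 0.0192) and Ctsd (-0.32, adjusted p = 0.0222) were lower as well.

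The remaining calls fell on other roles. Psap had 19444.6, 17971.1 and 18615.1 normalised counts in Macrophage-depleted hearts, against 23260.3 and 21320.4 in Mertk-KO hearts (log2 difference -0.26, limma adjusted p = 0.0387), and Npc2 had 661.6, 574.8 and 600.8 in Macrophage-depleted against 738.1 and 781.2 in Mertk-KO hearts (-0.31, adjusted p = 0.0392). Atp6v0d1, a subunit of the membrane sector of the proton pump, had 366.0, 364.1 and 371.2 in Macrophage-depleted against 481.9 and 434.2 in Mertk-KO hearts (-0.32, adjusted p = 0.0339). Scarb2 had 2590.2, 3244.3 and 2917.0 in Macrophage-depleted against 2462.8 and 2244.7 in Mertk-KO hearts (0.30, adjusted p = 0.0395). In none of these 4 did the libraries overlap, though for Scarb2 Macrophage-depleted library 1 lay near Mertk-KO library 1.

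Macrophage markers differed alongside: 18 of 18 were lower in Macrophage-depleted than in Mertk-KO hearts, 15 of them called, with a median log2 difference of -1.50. Adipocyte markers were lower in 5 of 5 (3 called, median -2.0) and endothelial markers in 7 of 10 (3 called, median -0.23). Other lists went higher. Mesothelial markers did so in 3 of 4 (1 called, median 2.47) and fibroblast markers in 6 of 10 (1 called, median 0.115). Recruited monocyte and neutrophil markers were higher in 4 of 6 (1 called, median 0.39). Cardiomyocyte markers were higher in 7 of 11 (median 0.071), though the 2 called were lower. The part of these cell types in the lysosomal differences was not tested. Across the 36 the rho of these differences was 0.265 with transcript length and -0.412 with GC content. With both trends removed, 2 lysosomal genes were called lower in limma, where 8.94% of all genes were called. They were Ctsb (-0.43, adjusted p = 0.00551) and Ctsl (-0.62, adjusted p = 0.00519). With the length implied by the 2 tables the calls were Ctsb (-0.52, limma adjusted p = 0.00361), Ctsl (-0.36, 0.0357) and Smpd1 (-0.25, 0.0422), all lower, where 8.74% of all genes were called. The number called among the 36 was 2 without Macrophage-depleted library 3, where 11.8% of all genes were called. It was 6 without Macrophage-depleted library 2 (9.93% of all genes). It was 5 without LxRαβ DKO library 1 (17.1% of all genes) and 5 without WT library 1 (17.4%).

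Macrophage-depleted and LxRαβ DKO hearts differed in 1 gene, Scarb2, which was higher (2.78% of the 36; 3.24% of all genes called in either direction and 1.35% called higher), with 2590.2, 3244.3 and 2917.0 normalised counts in Macrophage-depleted hearts against 2287.3, 2372.5 and 2188.9 in LxRαβ DKO hearts. The groups did not overlap (log2 difference 0.35 ± 0.084, SE; limma adjusted p = 0.048). The call held on leaving out Macrophage-depleted library 1 or either Mertk-KO library and was lost on leaving out any of the other 8 libraries, with adjusted p-values of 0.00495 to 0.185 over 24 alternatives; 4 of the 36 genes were called without Mertk-KO library 1 and 4 without Mertk-KO library 2, where 8.85% of all genes were called in each case. In the same comparison macrophage markers were lower in 16 of 18 (4 called, median -0.89), adipocyte markers in 5 of 5 (5 called, median -2.45) and endothelial markers in 10 of 10 (1 called, median -0.23), while recruited monocyte and neutrophil markers were higher in 6 of 6 (1 called, median 0.79); their part in the Scarb2 difference was not tested.

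Mertk-KO and LxRαβ DKO hearts likewise differed in 1 gene, Ctsd (2.46% of all genes called in either direction and 0.684% called higher), with 16293.2 and 14551.3 normalised counts in Mertk-KO hearts against 11369.0, 11727.9 and 12120.6 in LxRαβ DKO hearts. Both Mertk-KO libraries were higher (0.39 ± 0.085, SE; adjusted p = 0.0397). This call held on leaving out Macrophage-depleted library 2, Macrophage-depleted library 3 or Mertk-KO library 2 and was lost on leaving out any of the other 8 (adjusted p 0.00503 to 0.273 over 24 alternatives), and 5 of the 36 genes were called without Mertk-KO library 2, where 15.6% of all genes were. Macrophage markers were higher in 18 of 18 in the same comparison (1 called, median 0.76), and their part in the Ctsd difference was not tested.

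The promoter motif was set beside these values as a description. In Mertk-KO against WT hearts the median log2 difference was 0.077 over the 14 genes with CACGTG in the window and 0.21 over the 18 without; over the 7 with TCACGTGA it was 0.20. Ctsd and Lamp1, whose promoters are printed above, held the motif and Npc2 did not.

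Beyond the 36, a list of 104 other lysosomal genes was read in the same fit, of which 94 were tested; Cd68 and Ctss in it are also among the macrophage markers. In Macrophage-depleted against WT hearts 40 were higher and 54 lower, with 0 called in limma, 0 with voom weights and 0 to 2 over the alternatives, and the proton pump subunits among them were lower in 10 of 16. In LxRαβ DKO against WT hearts 1 was called, lower: Manba, the beta-mannosidase that removes mannose from glycoproteins, with 134.3, 135.1 and 150.4 normalised counts in LxRαβ DKO hearts against 434.9, 433.7 and 390.9 in WT hearts. Its log2 difference was -1.58 ± 0.094 (SE; limma adjusted p = 2.45e-06), far outside the range of the 36 genes, and it was called in all 24 alternatives.

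In Mertk-KO against WT hearts 64 of the 94 were higher and 30 lower, and 6 were called higher and 4 lower. These calls depended on the libraries and on the trend with transcript length and GC content. In limma 0 were called without any 1 of the WT libraries and 2 without LxRαβ DKO library 1. With the length and GC trend removed 1 was called (Atp6v1d). With a replicate block, only the 2 groups or library weights 0 of the 94 were called, with TPM 3, with the implied length 1 (Atp6v1b2), and with no minimum 4 of 102 tested. Of the other proton pump subunits 15 of 16 were higher (median log2 difference 0.21), and 3 rose: Atp6v1b2 (0.35, limma adjusted p = 0.03), Atp6v0c (0.38, 0.0316) and Atp6v0b (0.32, 0.0394). Gm2a, the activator that hands ganglioside GM2 to hexosaminidase A, rose (0.41, adjusted p = 0.0436), as did the membrane protein Tmem192 (0.54, 0.0334) and Lamtor1, the anchor of the Ragulator complex that recruits mTORC1 to the lysosome (0.49, 0.0235). Tmem106b, a membrane protein that sets lysosome size and movement, fell (-0.65, adjusted p = 0.0256), with 1152.3 and 1636.8 normalised counts in Mertk-KO hearts against 2114.6, 2179.4 and 2163.8 in WT hearts. The other 3 that fell were regulators: the MiT/TFE factor Mitf (-0.34, 0.0327), Fnip1, a partner of folliculin in mTORC1 control (-0.73, 0.035), and Zkscan3, a repressor of lysosomal and autophagy genes (-0.38, 0.0477). The list was thus called in both directions, with more of the 94 called higher (6) than lower (4). All genes tested in this comparison leaned the other way, 3.38% called higher and 5.89% lower. Of the 16 pump subunits, the 3 called were all higher.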

How the data were processed

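Whole-heart RNA of 11 libraries was taken up in Trizol and amplified before library making with a NuGen Ovation kit, per the labels' protocols. Named in the submitters' processing notes, without roles, are RSEM 1.2.20, kallisto 0.43.1, cutadapt, CASAVA 1.8.2 and GRCm38. The tool behind each table and the use of strand: not given in the sources used here. Both deposited tables hold a signal per gene and library that the authors normalised: the first is relative to library size with 0.5 read added, as its values show, and the second is normalised TPM. Subtracting the added part gave estimated reads. Only 57.2% to 61.5% of low values were whole within 0.01 read, so no model of whole counts was used. Reads were scaled to the mean effective library size. A gene at 0 allows up to 3 reads, or 2.12 to 4.22 normalised counts, and every lysosomal gene averaged at least 35.3; such floors cover counting error only.

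Log2(normalised count + 1) of the 13884 genes with a mean of at least 10 was fitted in limma 3.58.1 (R 4.3.3, trended variance) with the 4 groups in 1 model, 7 residual degrees of freedom, and Benjamini-Hochberg adjustment over all genes tested; the fit was tested on simulated data. Fold changes are on this log scale. Transcript lengths and GC came from GENCODE M21 on GRCm38 and promoters from RefSeq GRCm38.p6. Alternatives were other scalings, TPM (minimum 1), other pseudocounts and minimums, only the 2 groups compared, library and voom weights, a replicate block, removal of the length and GC trend, and leaving out each library; the trend with the length implied by the 2 tables was added after seeing the data. The named genes were all 36 members, up to 4 called genes of each other list per comparison with WT, and the targeted genes; Atp6v1d was named after its values were seen. The members and lists were chosen with earlier results of these data known.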

Additional observations from a re-analysis of the deposited data

How the results depend on the processing

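The replicate numbers did not pair the libraries: over 15 same-numbered pairs the correlation of deviations from the group means ran from -0.094 to 0.107, with 2 pairs above 0.1. With a replicate block, 0 lysosomal genes were called in Mertk-KO against WT hearts, 4 in Macrophage-depleted against Mertk-KO, 0 in Macrophage-depleted against LxRαβ DKO and 0 in Mertk-KO against LxRαβ DKO, and the Mertk-KO against WT median was 0.133. Against WT, no lysosomal gene was called in Macrophage-depleted or LxRαβ DKO hearts under any alternative run. The Mertk-KO against WT count of 3 was 1 with TPM, voom weights or the length implied by the 2 tables, 0 with no minimum, only the 2 groups or library weights, and 0 to 5 without 1 library, while the share of all genes called, 9.27% as reported, was 3.07% with TPM, 6.9% with voom weights, 1.34% with the implied and 1.93% with the annotated length trend removed, 2.38% with no minimum, 0.0072% with only the 2 groups, 0.0864% with library weights and 2.82% with the block; the median of 0.17 was 0.124 with TPM, 0.069 with the annotated length and GC trend removed, 0.091 with the implied length, and 0.136 to 0.189 without 1 library. Macrophage-depleted against Mertk-KO gave 6 calls with TPM, 4 with no minimum, 0 with only the 2 groups or library weights, 2 and 3 with the length trends removed (annotated and implied), and 2 to 10 without 1 library; all genes called were 21.0% as reported, 12.8% with TPM, 8.4% with no minimum, 1.05% with only the 2 groups, 3.15% with library weights and 14.7% with the block. Macrophage-depleted against LxRαβ DKO gave 0 with TPM or no minimum, 6 with library weights (14.7% of all genes, against 3.24% as reported), 2 with the annotated length trend removed, and 0 to 4 without 1 library. Mertk-KO against LxRαβ DKO gave 0 with TPM, no minimum, only the 2 groups, library weights, voom weights or the annotated length trend removed, and 0 to 5 without 1 library. The median against WT was -0.043 to 0.026 without 1 library in Macrophage-depleted hearts; in LxRαβ DKO hearts it was -0.018 to 0.021 without 1 library, -0.03 with TPM, -0.032 with the annotated and -0.027 with the implied length trend removed. The share of all genes called in Macrophage-depleted against LxRαβ DKO was 1.77% with TPM, 1.11% with no minimum and 2.25% with the block. It was 3.11% with the annotated length trend removed. In Mertk-KO against LxRαβ DKO it was 2.46% as reported, 0.536% with TPM, 0.598% with no minimum and 0.144% with only the 2 groups. It was 0.137% with library weights, 1.17% with voom weights, 2.31% with the annotated trend removed and 0.857% with the block. The cause of these shifts was not tested. Without 1 Macrophage-depleted, LxRαβ DKO or WT library, 0.972% to 4.81% of all genes were called in Macrophage-depleted against LxRαβ DKO. In Mertk-KO against LxRαβ DKO the range was 0.519% to 1.53%. With 2 Mertk-KO libraries, a setting that leaves out 1 assumes that the other varies like the other groups. Gla, the member with the fewest reads, had the widest interval against WT in each of the 3 comparisons.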
